A study of Homo sapiens with 4 samples.

Results

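The genes described here are the E2F transcription factors and the pocket proteins RBL1 and RBL2, in cancer cells treated with a hexane extract of Melicope ptelefolia leaves (MP-HX). They were taken by symbol from E2F1 to E2F8, RBL1 and RBL2, and 7 of these 10 symbols have a named transcript cluster, which is the set of probes that reports a gene on the array. The 7 are the activators E2F1, E2F2 and E2F3, the atypical repressors E2F7 and E2F8, and both pocket proteins, with 1 cluster each among 16098 clusters with a gene symbol and 48226 in all. E2F4, E2F5 and E2F6, the repressors that work through pocket proteins or Polycomb complexes, have no named cluster and are not analysed here.

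The study profiled cultured cells of a colorectal carcinoma (HCT116) and a hepatocellular carcinoma (HepG2) on Affymetrix Human Gene 2.0 ST arrays after 24 h with MP-HX or with vehicle. HCT116 cells received 60 µg/mL of MP-HX and HepG2 cells 78 µg/mL, so that line and dose differ together. The labels give 0.3% DMSO for the vehicle cells of HCT116 and 0.39% for those of HepG2, whereas the methods of the study give 0.39% alone. Each group is 1 array, on which the RNA of 3 cultures was pooled, so the arrays did not measure the spread between cultures. No difference within a line has a replicate on the arrays. The study also ran RT-qPCR on 3 biological replicates for selected genes and reports the same directions as on the arrays. The members were not among those genes, but MCM10, GINS2, CCNA2 and BBC3, named below, were. All cells grew in DMEM with serum and antibiotics, and each line is an established culture from ATCC that carries its own cancer genotype, which the labels do not detail.

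E2F proteins bind DNA as dimers with a DP partner and control the genes of S phase entry. Before S phase entry pocket proteins sit on E2F and keep these genes low. They are RB1, RBL1 (also called p107) and RBL2 (also called p130). Cyclin-dependent kinases then phosphorylate the pocket proteins and free E2F. E2F7 and E2F8 bind DNA without a DP partner or a pocket protein and repress the same genes later in S phase, and E2F1 and RBL1 are themselves known targets of E2F.

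The promoters of the members are shown because they differ in the letters that E2F proteins are known to bind. RefSeq windows from 250 bases before to 50 bases after the start of transcription (GRCh38.p14) were found for 6 of the 7 members, all but E2F8. In 4 of them, E2F1, E2F2, E2F3 and RBL1, the core word TTCGCG was followed on the same strand by the core word TTGGCG, with the first bases of the words 17, 15, 14 and 10 bases apart. The 150 bases before the start of these 4 genes are printed 5′ to 3′ on the strand of the gene, with the core words in capitals.
E2F1 (chr20:33686386-33686535, minus strand): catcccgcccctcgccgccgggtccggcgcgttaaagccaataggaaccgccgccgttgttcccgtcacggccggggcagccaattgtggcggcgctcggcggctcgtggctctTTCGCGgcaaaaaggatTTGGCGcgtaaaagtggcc
E2F2 (chr1:23531234-23531383, minus strand): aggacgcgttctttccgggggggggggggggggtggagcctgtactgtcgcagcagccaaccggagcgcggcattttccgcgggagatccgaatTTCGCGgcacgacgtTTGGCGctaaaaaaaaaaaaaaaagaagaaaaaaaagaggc
E2F3 (chr6:20401729-20401878, plus strand): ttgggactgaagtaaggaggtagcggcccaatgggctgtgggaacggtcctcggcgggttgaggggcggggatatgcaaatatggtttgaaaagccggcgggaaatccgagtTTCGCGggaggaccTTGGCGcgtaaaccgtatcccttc
RBL1 (chr20:37095998-37096147, minus strand): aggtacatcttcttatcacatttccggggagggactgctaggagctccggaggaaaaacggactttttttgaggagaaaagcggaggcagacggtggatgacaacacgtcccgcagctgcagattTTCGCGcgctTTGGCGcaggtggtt
The same stretch is given for E2F7 and RBL2 as the members with a window that lack the pair. The capitals in E2F7 mark CGCCAA, the reverse complement of TTGGCG, and RBL2 has neither core word.
E2F7 (chr12:77065570-77065719, minus strand): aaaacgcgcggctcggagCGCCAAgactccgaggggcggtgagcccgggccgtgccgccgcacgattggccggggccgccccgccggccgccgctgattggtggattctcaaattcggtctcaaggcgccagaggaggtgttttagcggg
RBL2 (chr16:53434321-53434470, plus strand): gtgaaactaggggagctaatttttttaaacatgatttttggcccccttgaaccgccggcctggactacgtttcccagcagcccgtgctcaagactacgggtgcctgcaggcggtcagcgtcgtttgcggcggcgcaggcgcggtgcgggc

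On either strand, at least 1 of the core words TTCGCG and TTGGCG was found in 14.1% of all 35116 human promoter windows of this length. The pair in this order, with the words at most 20 bases apart, was found in 21 windows, which is 0.0598%. Among the 10749 measured genes with a window it occurred in 11, or 0.102%, and 4 of these 11 were members. The longer E2F consensus (TTTCCCGC, TTTCGCGC, TTTGCCGC or TTTGGCGC on either strand, 3.31% of windows) contains a core word in 2 of its forms and so overlaps with the core. It was found 2 times in E2F1, 1 time in E2F2, 1 time in E2F3, 2 times in RBL1 and 0 times in E2F7 and RBL2. The CHR words TTTGAA and TTCGAA, known from genes of late cell division, were in 16.4% of windows and, among the members, in E2F3 and RBL2. CCAAT, on either strand, was in 34.6% of windows, with 3 matches in E2F1, 4 in E2F3, 4 in E2F7 and 1 in RBL2. The words were chosen after the sequences had been seen, and a match is a description of the letters, not of a bound site. The order and the span of the pair fit the spacings of the members themselves, so its rarity is not independent evidence about them.

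**Figure D1:**
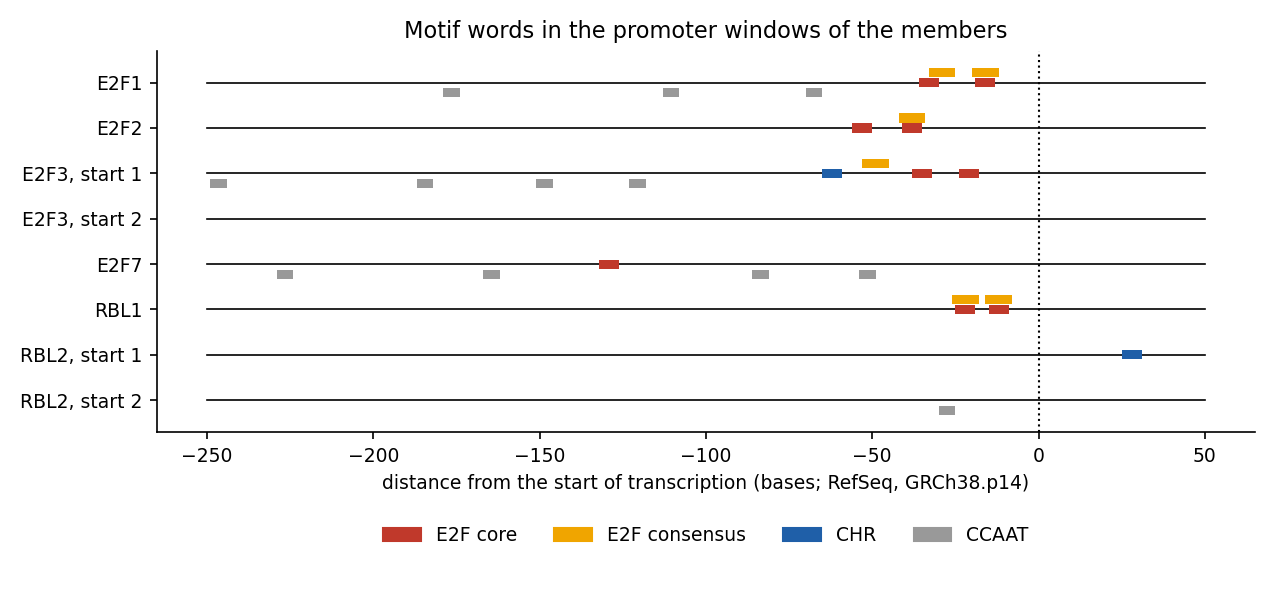
Positions of 4 motif words in the promoter windows of 6 members, in bases from the start of transcription (dotted line); E2F3 and RBL2 have 2 windows each, 1 for each start. The core words (red) of E2F1, E2F2, E2F3 and RBL1 come in pairs just before the start, E2F7 has 1 core word farther out, and RBL2 has none.

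The arrays carried no replicate and separated the lines clearly. Over all clusters the HCT116 arrays had a median log2 signal of 4.31 (vehicle) and 4.33 (MP-HX), and the HepG2 arrays of 4.03 and 3.97. The median of HepG2 minus that of HCT116 was thus -0.28 for vehicle and -0.36 for MP-HX. Genes with a named cluster are called measured here. The 10 measured hepatocyte markers had log2 signals from 2.83 to 5.55 on the HCT116 arrays and from 7.82 to 13.06 on the HepG2 arrays. The 8 measured colon epithelium markers were less clear, with medians of 5.14 (vehicle) and 5.20 (MP-HX) in HCT116 and 4.91 (vehicle) and 4.71 (MP-HX) in HepG2. Among them CDX1, CDX2, ASCL2 and EPCAM were brighter in HCT116 under both treatments. The stem cell receptor LGR5 and the microvillus protein VIL1 were brighter in HepG2, and CEACAM5, a marker of differentiated colon cells, lay below the array median on all 4 arrays. Between MP-HX and vehicle the hepatocyte markers had a median log2 difference of -0.06 in HCT116 and -0.33 in HepG2, where all 10 lay below vehicle, with FGA, a fibrinogen chain, 2-fold lower. The colon markers had medians of 0.04 and -0.21, and 7 of 8 lay below vehicle in HepG2, with LGR5 at -1.52. Of 3 leukocyte markers measured, CD68, which also marks lysosomes, was higher with MP-HX, with a log2 signal of 10.01 against 7.40 in HCT116 and 10.81 against 9.75 in HepG2. CD14 differed from vehicle by 0.09 and -0.11 and LYZ by 0.08 and -0.34. The 4 fibroblast and endothelium markers ranged from 2.26 to 4.23 over all arrays, and the part of any of these in the results below was not tested.

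Of the 7 members, 4 were at least 2-fold lower with MP-HX in HCT116, namely E2F1, E2F2, E2F8 and RBL1. E2F2, E2F8 and RBL1 were so in HepG2 too, and 0 members were at least 2-fold higher in either line. As background, the share of all clusters with a gene symbol past 2-fold in the lower direction was 2.91% in HCT116, 2.16% in HepG2 and 0.932% in both lines, and in the higher direction it was 2.32% and 3.13%. All 7 members lay above the array median on all 4 arrays, and among clusters above it on at least 1 array the lower shares were 3.72% and 2.68%. The median log2 difference of the 7 members was -1.18 in HCT116 and -0.49 in HepG2, against 0.00 in each line over all clusters with a gene symbol. In bulk RNA, fewer cycling cells and less RNA per cell cannot be told apart. The study picked E2F genes for its own account of these arrays, so that these counts are not independent evidence of their direction.

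**Figure D2:**
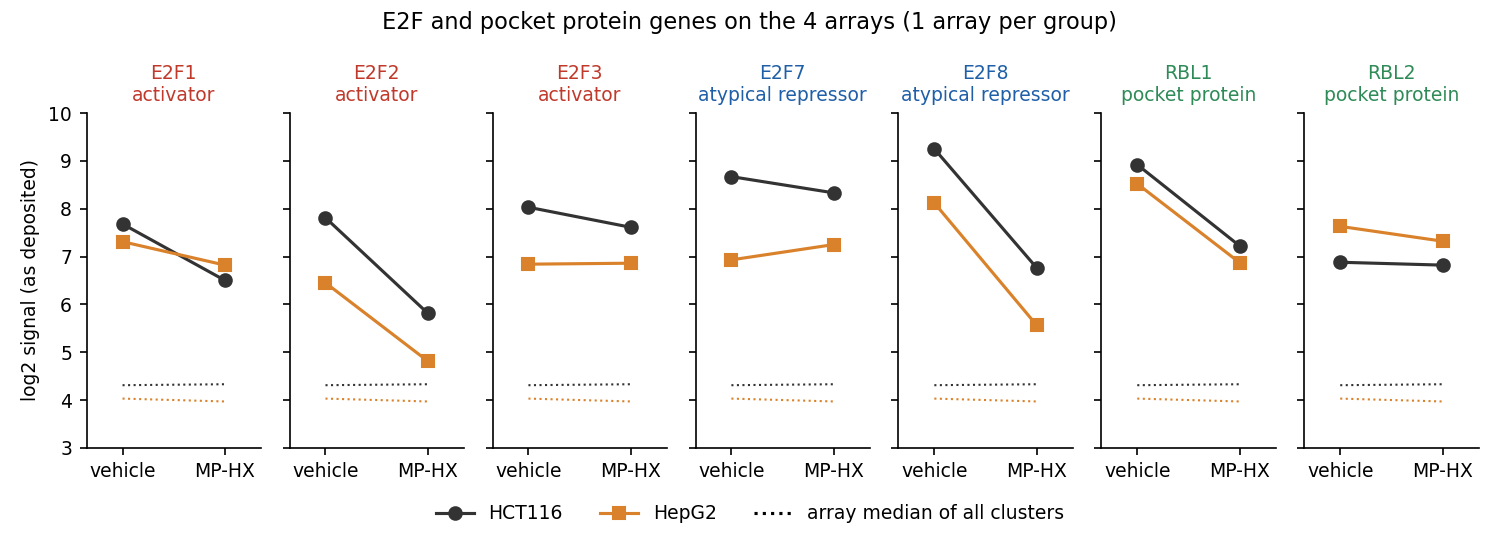
Deposited log2 signal of the 7 members with vehicle and with MP-HX in HCT116 (circles) and HepG2 (squares), 1 array per point, so that no error bar can be drawn; dotted lines are the medians of all clusters on each array. The lines drop steeply for E2F2, E2F8 and RBL1 in both cell lines and, for E2F1, more in HCT116 than in HepG2. E2F3, E2F7 and RBL2 change least, with E2F3 in HCT116 at -0.42, close to E2F1 in HepG2 at -0.49.

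Among the activators, E2F2 had the largest difference. The E2F2 gene lies at chr1:23505212-23531233 (GRCh38.p14, as for the genes below), and its cluster is 16683358. Its log2 signal in HCT116 was 7.81 under vehicle and 5.81 under MP-HX, and the HepG2 arrays gave 6.45 and 4.81. Both treated arrays thus lay below both vehicle arrays. The log2 difference was -2.00 in HCT116 and -1.64 in HepG2, which leaves 25% and 32.1% of the vehicle signal, and by this difference it ranked 47 and 55 from the lowest among all clusters with a gene symbol. The signal in treated HepG2 was only 0.84 above the array median on the log2 scale. With 64 added to the linear signal the differences shrank to -1.26 and -0.72, the latter under 2-fold.

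E2F1, the activator best known for driving both S phase genes and, at high activity, cell death genes, lies at chr20:33675477-33686385 (cluster 16918445). Its log2 signal in HCT116 was 7.68 under vehicle and 6.50 under MP-HX, and the HepG2 arrays gave 7.31 and 6.82. The treated array was the lower of each pair, and the signals of the treated arrays stood in the opposite order to those of the vehicle arrays. The difference was -1.18 in HCT116 and -0.49 in HepG2, which leaves 44.1% and 71.2% of the vehicle signal. With 64 added the HCT116 difference was -0.80, also under 2-fold.

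E2F3, which shares much of its target set with the other activators and is made as long and short isoforms from separate starts, lies at chr6:20401879-20493714 (cluster 17005234). On the HCT116 arrays the log2 signal was 8.03 under vehicle and 7.61 under MP-HX, and the HepG2 arrays gave 6.84 and 6.86. The differences of -0.42 and 0.02 lay well inside 2-fold, and the HepG2 value changed sign to -0.05 after quantile normalization. The window of its first start carries the same ordered pair of core words as E2F1, E2F2 and RBL1, and that of its second start does not.

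Among the atypical repressors, E2F8 (chr11:19224063-19241655, cluster 16736638) had the lowest differences of all members. In HCT116 its log2 signal was 9.25 under vehicle and 6.76 under MP-HX, and the HepG2 arrays gave 8.12 and 5.56. Both treated arrays lay below both vehicle arrays. The signal was 5.62-fold lower in HCT116, at a log2 difference of -2.49, and 5.90-fold lower in HepG2, at -2.56. By this difference E2F8 ranked 11 from the lowest among 16098 clusters with a gene symbol in HCT116 and 3 in HepG2. With 64 added it was at -1.96 and -1.62, still more than 2-fold lower.

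E2F7, the closest relative of E2F8, lies at chr12:77021251-77065569 (cluster 16767851). On the HCT116 arrays its log2 signal was 8.67 under vehicle and 8.33 under MP-HX, and the HepG2 arrays gave 6.93 and 7.25. The treated array was the lower in HCT116 and the higher in HepG2, with differences of -0.34 and 0.32. Both were smaller than the robust SD of the differences over all named clusters, 0.37 in each line. The 2 atypical repressors were therefore 2.15 apart in their log2 differences in HCT116 and 2.88 apart in HepG2, although both proteins repress the same kind of genes.

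RBL1 (p107), the pocket protein that is high in cycling cells, lies at chr20:36996349-37095997 (cluster 16919044). Its log2 signal in HCT116 was 8.92 under vehicle and 7.22 under MP-HX, and the HepG2 arrays gave 8.52 and 6.87. Both treated arrays again lay below both vehicle arrays. The differences of -1.70 and -1.65 were 3.25-fold and 3.14-fold, and with 64 added they were -1.36 and -1.25.

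RBL2 (p130), the pocket protein of resting cells and of the DREAM repressor complex, lies at chr16:53434471-53491648 (cluster 16818980). In HCT116 the log2 signal was 6.88 under vehicle and 6.82 under MP-HX, and the HepG2 arrays gave 7.63 and 7.32. The HepG2 arrays were the brighter ones under both treatments, and the differences of -0.06 and -0.31 were under the robust SD of all clusters. RBL1 and RBL2 were 1.64 apart in their log2 differences in HCT116 and 1.34 apart in HepG2.

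The activators did not separate from the repressors by their differences. The median was -1.18 for the 3 activators and -1.42 for the 2 atypical repressors in HCT116, and -0.49 and -1.12 in HepG2. The activator median was thus higher by 0.24 and 0.63, while the members of the activator class were up to 1.58 and 1.66 apart from each other. With 1 array per group and classes of 3 and 2 genes this comparison has no test. In both lines each class, the pocket proteins included, held a member at least 2-fold lower beside a member inside 2-fold.

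**Figure D3:**
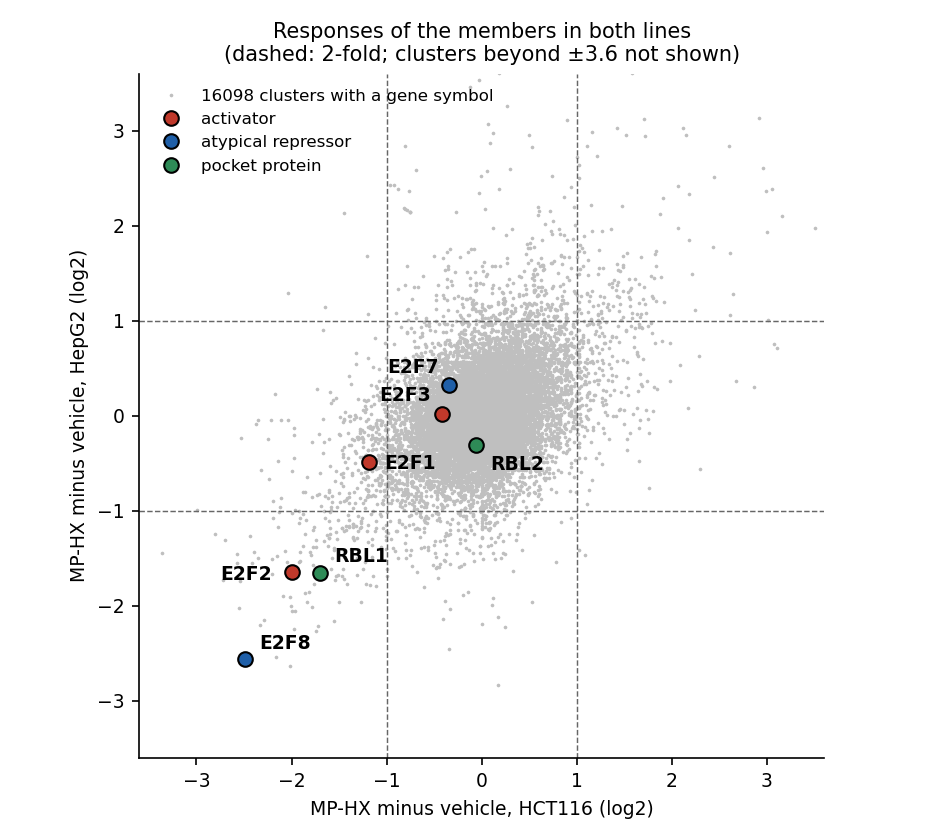
Log2 difference between MP-HX and vehicle in HCT116 (x axis) and HepG2 (y axis) for all 16098 clusters with a gene symbol (grey) and the 7 members (coloured by class); dashed lines mark 2-fold. E2F8, E2F2 and RBL1 lie in the lower left corner beyond 2-fold in both lines, E2F1 passes the line in HCT116 alone, and E2F3, E2F7 and RBL2 lie inside the cloud.

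For the MP-HX effect common to HCT116 and HepG2, limma was fitted to both pairs of arrays with a term for the line, which left 1 residual degree of freedom. Each SE and p-value also draws on a prior variance that limma took from all fitted clusters. The mean log2 difference was -2.52 (SE 0.17) for E2F8, -1.82 (SE 0.19) for E2F2 and -1.68 (SE 0.17) for RBL1, each with adjusted p = 0.19 from limma over all clusters with a gene symbol. E2F1 had a mean of -0.83 (SE 0.24, adjusted p = 0.33 from limma), and adjusted p was 0.74 for E2F3, 0.99 for E2F7 and 0.73 for RBL2. At an adjusted p under 0.05 limma called 0 members, as it called 0 of all clusters (0%). At an unadjusted p under 0.05 it called 4 members lower, against 5.86% of all clusters in that direction. After quantile normalization, which brought the arrays of the lines to the same distribution, 233 clusters passed and 3 members were among them, with adjusted p = 0.016 for E2F8, 0.023 for E2F2 and 0.024 for RBL1 from limma. After median centring 0 members passed, with adjusted p = 0.11 from limma for each of these 3.

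The responses of HCT116 and HepG2 were also set side by side, which has no test with 1 array per group. The response in HepG2 minus that in HCT116 was 0.69 for E2F1, 0.66 for E2F7, 0.44 for E2F3 and 0.36 for E2F2 on the log2 scale. It was 0.05 for RBL1, -0.07 for E2F8 and -0.25 for RBL2. Of the 7 members 0 had responses at least 2-fold apart, against 6.03% of all clusters with a gene symbol. Cell line and dose cannot be told apart in these values.

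The lines differed in the level of several members before any treatment effect is considered. In the vehicle arrays 6 of the 7 members were dimmer in HepG2 than in HCT116, and E2F2, E2F3, E2F7 and E2F8 were at least 2-fold dimmer, against 19% of all clusters with a gene symbol. Relative to the median shift of -0.28, the vehicle difference was -1.46 for E2F7, -1.08 for E2F2, -0.91 for E2F3 and -0.85 for E2F8. RBL2 was the exception, brighter in HepG2 by 1.03 on this scale. RBL1 at -0.12 and E2F1 at -0.09 were close to the shift itself, and E2F1 changed sign to 0.06 after quantile normalization.

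Over both treatments limma, with treatment as a block, gave a mean difference of HepG2 minus HCT116 of -1.41 (SE 0.23) for E2F7, -1.18 (SE 0.19) for E2F2, -1.17 (SE 0.17) for E2F8 and -0.97 (SE 0.20) for E2F3. The adjusted p-values from limma were 0.025, 0.023, 0.02 and 0.035. These 4 members passed at an adjusted p under 0.05, where 31.9% of all clusters with a gene symbol did, and 5 passed at an unadjusted p under 0.05, where 49.4% of all clusters did. E2F3 no longer passed after quantile normalization (adjusted p = 0.094 from limma) or median centring (adjusted p = 0.1 from limma), and RBL2, at a mean of 0.63 and adjusted p = 0.063 as deposited, then passed at 0.012 and 0.03. With 64 added to the linear signal 0 members and 0 of all clusters passed. The means of E2F2 and E2F8 were closer to each other than their standard errors.

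To place each member, its pattern over the 4 arrays was set against that of 11614 genes above the array median on at least 1 array, by the Euclidean distance between log2 values centred on their own mean. The genes nearest to E2F8 were EXO1, a DNA exonuclease, at a distance of 0.249, ESCO2, which acetylates cohesin, at 0.296 and TICRR, a factor of replication initiation, at 0.471. The genes nearest to RBL1 were XRCC2, a protein of DNA repair, at 0.175, DTL, which directs CDT1 to degradation, at 0.24 and KIF15, a mitotic kinesin, at 0.254. Nearest to E2F2 were MAD2L1 of the spindle checkpoint at 0.0787, ARHGAP11A at 0.197 and CLSPN, the checkpoint adaptor claspin, at 0.22. These 9 genes had log2 differences from -2.33 to -1.58 in HCT116 and from -2.63 to -1.43 in HepG2. That range follows from the choice, since the genes were picked for likeness on these same arrays.

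For E2F1 the nearest genes were PFAS, an enzyme of purine synthesis, at a distance of 0.026, LRIG3 at 0.086 and PTDSS1, which makes phosphatidylserine, at 0.0927. PFAS had log2 differences of -1.21 in HCT116 and -0.47 in HepG2. For E2F3 they were MRPL49, a mitochondrial ribosomal protein, at 0.01, CHSY1 at 0.0433 and MAP3K6 at 0.0539, and for E2F7 they were RPS19BP1 at 0.0374, MXD3 at 0.0792 and DCAF4L1 at 0.0812. For RBL2 they were C11orf58 at 0.05, CCL3L1 at 0.0606 and ANO6 at 0.0678. Short distances are easier to reach for patterns with small differences, and 4 arrays are few, so these are descriptions with no test. Among the members the closest patterns were those of E2F3 and E2F7, at 0.492, then of E2F2 and E2F8 at 0.737 and of E2F2 and RBL1 at 0.833, and the farthest were those of E2F8 and RBL2 at 2.95.

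The DNA-binding partners and RB1 itself lay inside 2-fold in both lines. TFDP1, the main DP partner of the activators, had a log2 signal of 7.53 under vehicle and 6.84 under MP-HX in HCT116 and of 7.28 and 6.53 in HepG2, which gives differences of -0.69 and -0.75. TFDP2 had differences of -0.02 and -0.46. RB1, the pocket protein that holds the activators, had a log2 signal of 9.80 and 9.46 in HCT116 and of 9.32 and 8.92 in HepG2, with differences of -0.34 and -0.40. RB1 thus resembled RBL2 more than RBL1 in the size of its difference.

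The MuvB core joins RBL2 or RBL1 and E2F4 in the DREAM repressor complex and later joins MYB proteins and FOXM1 to activate genes of division. The 8 measured genes of the core and these partners had median log2 differences of -0.76 and -0.53. Past 2-fold in the lower direction were 3 partners in HCT116, 1 of them also in HepG2, and 0 core genes. MYBL1 (A-MYB) was lower in both lines, at -1.12 and -1.21, and the core subunit LIN37 was higher in both, at 1.00, exactly at the threshold, and 1.27. MYBL2 (B-MYB) had -2.14 and -0.48 and FOXM1 -1.57 and -0.91. Here and in the next paragraphs genes past 2-fold in 1 line alone were named after their values had been seen. The kinases and cyclins that act on pocket proteins included 10 measured genes, with medians of -1.02 and -0.77, and 5 in HCT116 and 4 in HepG2 lay 2-fold or more below vehicle. They were CDC25A, the phosphatase that switches CDK2 on, at -2.15 and -1.48, the S phase cyclin CCNA2 at -2.07 and -1.42, CCNE2 at -2.14 and -1.17, CDK6 at -1.30 and -1.06 and, in HCT116 alone, CDK2 at -1.08. With 64 added to the linear signal, 1 of them and 0 of the MuvB genes and partners were 2-fold or more lower in HepG2. Of 7 CDK inhibitors listed, CDKN2A is the one with a named cluster, at -0.06 and 0.28, and the rest, CDKN1A and CDKN2B among them, are not analysed here, so nothing is said of the inhibitors as a group.

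Genes of E2F protein turnover, 7 of which were measured, had medians of -0.21 and -0.36, with 3 past 2-fold in the lower direction in HCT116 and 1 in HepG2. SKP2, also listed, has no named cluster and is not analysed here, so these medians and counts leave it out. FBXO5 (EMI1), an inhibitor of the APC/C ligase and a known E2F target, was lower in both lines at -1.15 and -1.49. Cyclin F (CCNF) had -1.96 and -0.99 and CDC20 -1.15 and -0.36, while SKP1 was at least 2-fold higher in HepG2, at 1.24, with 0.33 in HCT116. With 64 added 0 of these genes were at least 2-fold lower in HepG2, and after quantile normalization 2 were. Of 7 measured corepressors of RB, SUV39H1 at -1.43 and EZH2 at -1.31 were the 2 at least 2-fold lower in HCT116, and 0 were in HepG2. None of 8 measured PRC1.6 genes, partners of E2F6, passed 2-fold in either line, and their medians were 0.06 and 0.03.

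Genes that E2F proteins are known to switch on at the G1/S transition were lower than vehicle in all 24 measured cases in each line. The difference was 2-fold or more for 21 of them in HCT116, for 14 in HepG2 and for 12 in both, and the medians were -1.52 and -1.10. MCM10, which starts the replicative helicase, had log2 differences of -2.55 and -2.02, its partner GINS2 -2.81 and -1.25 and the helicase subunit MCM6 -2.21 and -1.67. UHRF1, which reads hemimethylated DNA, had -2.44 and -1.27 and GINS1 -1.55 and -2.16. The 16 measured G2/M genes that MuvB complexes control had medians of -1.58 and -1.12, and 16 of them in HCT116 and 10 in HepG2 were 2-fold or more below vehicle. Among them the kinesin KIF20A had -2.72 and -1.73, the mitotic kinase CDK1 -1.86 and -1.87, its cyclin CCNB1 -1.82 and -1.85 and the checkpoint kinase BUB1 -1.91 and -1.43. With 64 added to the linear signal 8 of the G1/S genes passed 2-fold in HepG2. Many of these genes were picked by the study on these arrays, so that their direction is not independent evidence.

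Apoptosis genes known as E2F1 targets did not share that direction. Of 6 measured, 2 were at least 2-fold higher and 1 lower in HCT116, and 2 were higher and 0 lower in HepG2, with medians of 0.57 and -0.01. BBC3 (PUMA) was higher in both lines, with a log2 signal of 8.07 against 6.52 for vehicle in HCT116 and of 7.02 against 5.58 in HepG2. TP53INP1 was at 1.73 in HCT116 and 0.06 in HepG2, and PMAIP1 (NOXA) at 0.76 and 1.63. TP73, a p53 relative under direct E2F1 control, was at -1.02 and -0.72. After the addition of 64 to the linear signal, 0 of these genes were at least 2-fold lower in HCT116.

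**Figure D4:**
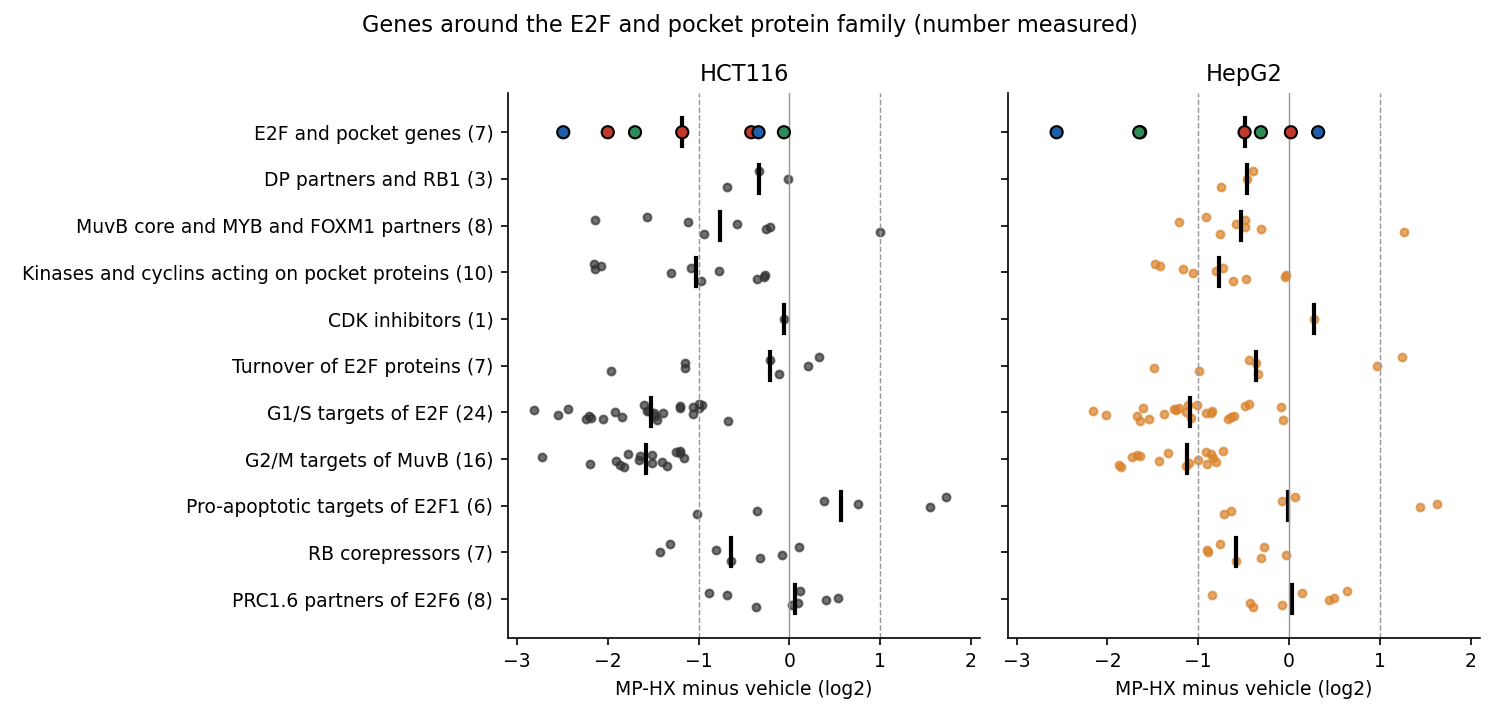
Log2 difference between MP-HX and vehicle for the 7 members (coloured by class as activator, red, atypical repressor, blue, and pocket protein, green) and for the measured genes of 10 lists around them, in HCT116 (left) and HepG2 (right); each point is a gene, the short black bar is the median and dashed lines mark 2-fold. All points of the G1/S and G2/M lists lie below 0 in both lines, with medians from -1.58 to -1.10, while the 7 members spread from -2.56 to 0.32.

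The promoter words were last set against the differences over all measured genes with a window. Of 578 genes with the E2F consensus 10.4% were at least 2-fold lower in HCT116, against 2.85% of 10171 genes without it, and in HepG2 the shares were 6.57% and 2.12%. The excess was not particular to the consensus. For the CHR words the shares were 5.8% with and 2.73% without in HCT116, and 5.04% and 1.82% in HepG2. CCAAT had 4.36% and 2.48% in HCT116 and 3.19% and 1.78% in HepG2, and the core words had 5.48% and 2.63%, then 3.65% and 2%. The consensus was found in 15 of 22 G1/S genes with a window and in 2 of 14 G2/M genes, while the CHR words were found in 2 and 11 of them. Among the 11 genes with the ordered pair of core words, E2F1, E2F2 and RBL1 were the 3 at least 2-fold lower in HCT116 and E2F2 and RBL1 the 2 in HepG2. The other measured genes with the pair, E2F3 included, had log2 differences from -0.64 for PRDX2 to 1.80 for SAT1 in HCT116. The pair was thus present in members with large and with small differences. E2F8, the member with the lowest differences, has no window, and the second start of E2F3 lacks the pair.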

How the data were processed

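RNA of HCT116 and HepG2 cells, pooled from 3 cultures per group, was profiled on 4 arrays. The authors deposited log2 signal per transcript cluster with 2 decimals in a table whose 4 value columns were all used (0 left out). Transcriptome Analysis Console, GCOS and Affymetrix Expression Console are the tools listed in the notes of the submitters on processing, and how the signals were normalized was not given in the sources used here. Precision is limited by the number of arrays, 1 per group. Values were used as deposited, without further scaling or filter. Symbols came from a platform table that names 16098 of 48226 clusters. A gene with no named cluster, such as E2F4, is not analysed here.

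Differences are MP-HX minus vehicle on the log2 scale, counted at the 2-fold threshold of the study's methods. With 1 array per group a difference within a line has no test. Shared and line effects were fitted with limma 3.58.1 (R 4.3.3; additive model, 1 residual degree of freedom, two-sided, Benjamini-Hochberg over 16098 clusters). The residual of a cluster is the difference between the lines' responses. Its variance was moderated by limma with a prior from all fitted clusters, with 3 prior degrees of freedom for the shared effect. Each SE and p-value therefore rests on both. Tables were handled in Python 3.11.15 with pandas 2.3.3, and the counting and fitting steps were tested on simulated data. The simulation gave both lines equal effects and little noise, so it does not show how the fit behaves on these arrays. Alternatives were quantile normalization, median centring, 64 added to the linear signal, the mean over the clusters of a gene, adjustment over all clusters, no line block, and 1.5-fold and 3-fold thresholds. Promoter words were searched in RefSeq windows (GRCh38.p14), which 10749 of 14884 measured genes have.

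Named genes were all members, every gene past 2-fold in both lines in lists of up to 12 genes, otherwise the 4 genes of largest mean difference (5 where the fourth place was tied), TFDP1, TFDP2 and RB1, and the 3 genes most like each member. Members and lists were chosen with earlier results of these data known.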

Additional observations from a re-analysis of the deposited data

Results flagged for a closer look

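E2F3 and E2F7 had differences of opposite sign in the 2 lines. The log2 difference of E2F3 was -0.42 in HCT116 and 0.02 in HepG2, and that of E2F7 was -0.34 in HCT116 and 0.32 in HepG2. All 4 values lay inside 2-fold, and the sign of E2F3 in HepG2 turned to -0.05 after quantile normalization. With 1 array per group the difference between the lines was not tested, and line and dose cannot be told apart.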

How the results depend on the processing

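The counts of members at least 2-fold lower were 4 in HCT116 and 3 in HepG2 as deposited, against 2.91% and 2.16% of all clusters with a gene symbol. They stayed so after quantile normalization (2.99% and 2.24% of all clusters) and median centring (3.04% and 1.91%). At a 1.5-fold threshold they were the same, but the shares of all clusters rose to 8.59% and 7.75%. Averaging over the clusters of a gene could change no member, since each has 1 cluster. The counts were 3 and 3 at a 3-fold threshold, against 0.739% and 0.429% of all clusters. Adding 64 to the linear signal made them 3 and 2 at 2-fold, against 1.23% and 0.652% of all clusters. By its construction this addition shrinks the differences of dim clusters most. E2F1 in HCT116 (-0.80) and E2F2 in HepG2 (-0.72) dropped out under the addition. The shared effect had 0 members at an adjusted p under 0.05 in limma as deposited, with median centring, with 64 added, with adjustment over all clusters and without the line block, and 3 after quantile normalization. The line effect had 4 members as deposited and 0 with 64 added. The causes of these last changes were not tested. The activator median minus the atypical repressor median ranged from 0.22 to 0.33 in HCT116 and from 0.37 to 0.64 in HepG2. No replicate could be left out, since each group is 1 array of pooled RNA, and signal near the array median limits E2F2 in treated HepG2 most.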
